A study of Rattus norvegicus with 13 samples.

Results

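The genes described here mark the later segments of the nephron and the collecting duct: Umod, Klk1, Klk1b3, Spp1, Calb1, Aqp2, Aqp3, Scnn1a, Scnn1b and Scnn1g. They were taken as every probe set whose single gene symbol is one of these 10 genes, which gave 10 of the 10411 genes, and 12 of the 15923 probe sets, on the array, by a rule that uses no signal. The glomerulus is the filter at the head of the nephron, built of podocytes, endothelium and mesangium, and its filtrate passes through the proximal tubule, the loop of Henle, the distal tubule and the collecting duct. The thick ascending limb of the loop takes up salt and secretes uromodulin, the distal convoluted and connecting tubule handle calcium and sodium, and the principal cells of the collecting duct take up water through aquaporins and sodium through the epithelial sodium channel. These genes are taken here as markers of epithelium outside the glomerular tuft, measured in preparations made to hold glomeruli. Which cells their signals came from was not tested.

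All 13 arrays carried RNA of glomeruli from untreated Lewis-Hsd rats aged 18 weeks that were fed a regular diet. The 4 arrays titled LCM 20 and the 5 titled LCM 800 came from frozen kidney, where glomerular profiles in sections of 10 µm were cut out by laser capture microdissection and the RNA was amplified in 2 rounds. The 4 arrays titled iron came from kidneys perfused with iron oxide, whose glomeruli were separated by sieving and a magnet and whose RNA was not amplified. About 800 cross-sections are given for both microdissected groups, and what the 20 in LCM 20 stands for is not stated. Isolation, perfusion and amplification change together between microdissected and iron arrays, so these cannot be told apart in the comparisons below. In RNA from many cells, fewer cells of a type and less RNA per cell cannot be told apart either. The purity of the iron preparations is given as over 99% by phase contrast microscopy. The extraction text also speaks of anti-Thy1.1 rats and the sample description of embryos, neither of which matches the other labels.

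The values are MAS5 signals in intensity units, and the median signal of an array lay between 236.4 and 320.8. Signals were tested as log2(signal + 65.29), a scale on which changes of dim probe sets are understated, in 1 limma fit of 11106 probe sets with Benjamini-Hochberg adjustment. On this scale the median change of all tested probe sets was 0.22 for LCM 800 minus iron, 0.17 for LCM 20 minus iron and -0.06 for LCM 20 minus LCM 800. With arrays scaled to equal medians the first of these was 0.11. Some arrays stood apart within their groups. Iron replicate 3 correlated at 0.873 to 0.897 with the other iron arrays, which correlated at 0.964 to 0.984 with each other. LCM 800 replicates 1 to 3 correlated at 0.893 to 0.93 among themselves and replicates 4 and 5 at 0.937, but at 0.718 to 0.812 across that split. Podocyte markers did not move one way. Against iron arrays 1 of 6 fell and 2 rose in LCM 20, and 2 fell and 2 rose in LCM 800. Synpo, which encodes the podocyte actin-binding protein synaptopodin, averaged 18798 signal units in LCM 20, 20285 in LCM 800 and 6417 in iron arrays, the largest rise of the list. Ptpro, a receptor tyrosine phosphatase gene of podocytes, averaged 2268 in LCM 20, 1494 in LCM 800 and 4207 in iron arrays and fell in both, and Podxl, the podocalyxin gene, averaged 4528 in LCM 20, 4126 in LCM 800 and 7195 in iron arrays and fell in LCM 800. The summed signal of 6 podocyte genes was 25828 to 40672 in LCM 20, 29159 to 40667 in LCM 800 and 15677 to 37733 in iron arrays.

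Umod encodes uromodulin, the abundant urinary glycoprotein made by the thick ascending limb. Its signal was 3036, 376, 1999 and 2182 in the 4 LCM 20 arrays. In the LCM 800 arrays it was 2229, 1906, 1839, 3100.1 and 2673. In the iron arrays it was 14980.0, 16355, 10225 and 14781. Every microdissected array lay far below every iron array, and LCM 20 replicate 2 lay below all the others. Umod fell by 2.56 ± 0.42 on the log2 scale in LCM 800 against iron arrays (SE, n = 5 and 4, limma adjusted p = 0.000154), and fell by 3.13 ± 0.45 in LCM 20 against iron arrays (n = 4 and 4, adjusted p = 5.78e-05). Both comparisons use the same 4 iron arrays.

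**Figure D1:**
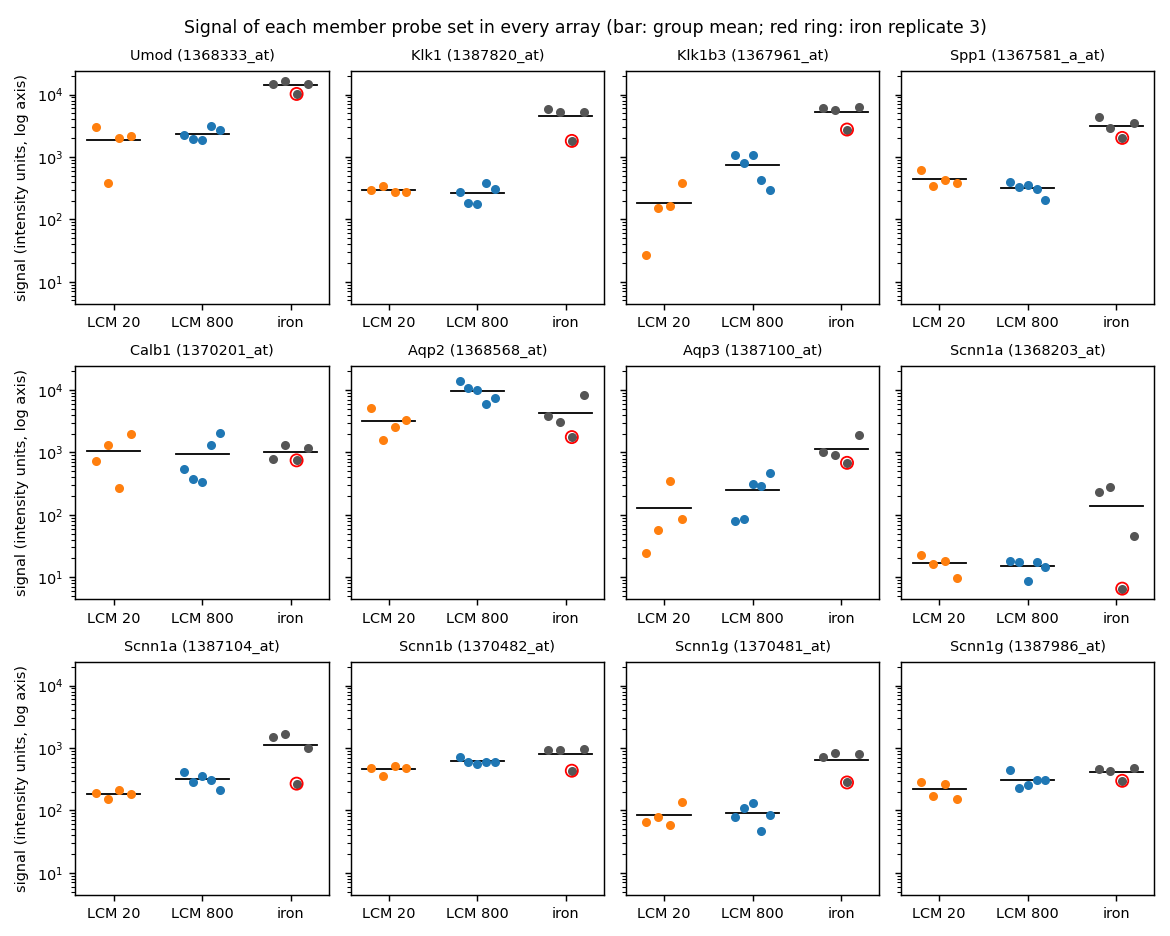
Each panel shows 1 member probe set, with the signal of every array on a log axis in intensity units, the LCM 20, LCM 800 and iron arrays side by side, bars at the group means and a red ring around iron replicate 3. The Umod, Klk1, Klk1b3 and Spp1 points of all 9 microdissected arrays lie below all 4 iron points, while the Calb1 points of the groups overlap and the Aqp2 mean is highest in LCM 800.

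Klk1 and Klk1b3 are serine protease genes of the kallikrein family, and tissue kallikrein, which the kidney makes in the connecting tubule, releases kinins from kininogen. The RefSeq gene table lists Klk1 as an older name of Klk1b3, so the names can be exchanged between sources. The loci lie near each other, with 5 genes between them, of which 3 are kallikrein genes. Their promoters, from 250 bases before to 50 bases after the start on RefSeq build GRCr8, are shown because the genes moved together against iron arrays and are copies of each other. In an alignment 233 of 264 paired bases were identical, or 88.3%, which is a description of these windows and not of the probes. Capitals mark the letters TTTAAA, which occur in 13.6% of 33469 rat promoters of this length, read on both strands. Klk1 is at chr1:103778902-103779201 on the plus strand and Klk1b3 at chr1:103845397-103845696 on the plus strand.
Klk1: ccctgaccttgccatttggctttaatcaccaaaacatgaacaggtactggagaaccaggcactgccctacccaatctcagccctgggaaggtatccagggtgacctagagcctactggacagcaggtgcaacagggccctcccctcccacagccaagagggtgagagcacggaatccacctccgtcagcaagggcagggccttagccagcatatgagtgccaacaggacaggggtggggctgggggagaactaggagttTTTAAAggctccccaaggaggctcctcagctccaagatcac
Klk1b3: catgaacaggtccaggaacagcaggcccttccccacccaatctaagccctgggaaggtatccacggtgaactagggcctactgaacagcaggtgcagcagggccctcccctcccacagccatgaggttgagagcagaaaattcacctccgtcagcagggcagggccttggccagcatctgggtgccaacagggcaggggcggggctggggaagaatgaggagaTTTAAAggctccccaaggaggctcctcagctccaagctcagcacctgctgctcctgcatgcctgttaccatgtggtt

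The TTTAAA letters begin at base 10 after the annotated start in Klk1 and at base -27 in Klk1b3, and whether they bear on either signal was not tested. Klk1 had signals of 294, 342, 272 and 279 in LCM 20 arrays. Its LCM 800 signals were 274, 181, 176, 389 and 301. Its iron signals were 5916, 5312, 1807 and 5209.7. All microdissected arrays lay far below the lowest iron array, which was replicate 3. Klk1 fell by 3.72 ± 0.31 log2 units in LCM 800 against iron arrays, the largest fall there among the tested member probe sets (SE, n = 5 and 4, limma adjusted p = 3.31e-07), and it fell by 3.55 ± 0.32 in LCM 20 against iron arrays (n = 4 and 4, adjusted p = 1.04e-06).

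Klk1b3 also had its highest signals in iron arrays. Its signals were 26.6, 151, 163 and 379 in LCM 20 arrays. In LCM 800 arrays they were 1075, 802, 1091, 433 and 290.1. In iron arrays they were 6162, 5717, 2749 and 6289.8. All microdissected arrays were below all iron arrays, LCM 800 replicates 1 to 4 were above every LCM 20 array, and replicate 5 was below LCM 20 replicate 4. Klk1b3 fell by 4.57 ± 0.46 log2 units in LCM 20 against iron arrays (SE, n = 4 and 4, limma adjusted p = 2.63e-06), and fell by 2.79 ± 0.43 in LCM 800 against iron arrays (n = 5 and 4, adjusted p = 8.61e-05). The direct LCM 20 minus LCM 800 change was -1.78 ± 0.43 and did not pass (adjusted p = 0.0851). Without LCM 800 replicates 4 and 5 it was -2.30 (adjusted p = 0.0017), and over all alternatives the adjusted p reached 0.571. Leaving out those 2 arrays let 1317 of all 11106 tested probe sets pass as lower, against 9 in the main fit. The difference of log2 Klk1 and log2 Klk1b3 within an array overlapped between LCM 20 (-0.37 to 1.97) and LCM 800 (-2.26 to 0.04). Since both genes share sequence, how far either probe set also binds the other transcript was not tested.

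Spp1 encodes osteopontin, a secreted phosphoprotein made along the distal nephron and by other cells. Its signals were 612, 336, 419.9 and 381 in LCM 20 arrays, 391, 329, 354, 303 and 205 in LCM 800 arrays, and 4291, 2912, 2019 and 3531 in iron arrays. The groups of microdissected arrays overlapped each other and lay wholly below the iron arrays. Spp1 fell by 3.06 ± 0.24 log2 units in LCM 800 against iron arrays (SE, n = 5 and 4, limma adjusted p = 2.49e-07), and fell by 2.67 ± 0.26 in LCM 20 against iron arrays (n = 4 and 4, adjusted p = 1.63e-06).

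Calb1 encodes calbindin-D28k, a cytosolic calcium-binding protein of the distal convoluted and connecting tubule. It was the only member gene for which neither microdissected group passed against iron arrays. Signals were 736, 1327, 270.4 and 1946 in LCM 20 arrays, 545, 379.5, 332, 1312 and 2087 in LCM 800 arrays, and 801, 1321, 748 and 1173 in iron arrays. The spread inside each microdissected group was wider than any gap between the groups, and LCM 800 replicates 4 and 5 were above replicates 1 to 3. The change was -0.40 ± 0.52 log2 units for LCM 800 minus iron (SE, n = 5 and 4, limma adjusted p = 0.535) and -0.17 ± 0.55 for LCM 20 minus iron (n = 4 and 4, adjusted p = 0.819). With only LCM 800 replicates 1 to 3 kept, LCM 800 minus iron was -1.14 (adjusted p = 0.0433, the lowest of all alternatives, which reached 0.832), and with only replicates 4 and 5 kept it was 0.72.

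Aqp2 and Aqp3 encode the apical and the basolateral water channel of collecting duct principal cells. Vasopressin brings aquaporin-2 to the apical membrane, and aquaporin-3 lets the water leave on the blood side. Their promoter windows on GRCr8 are shown because the genes of one cell type moved in opposite directions in LCM 800 against iron arrays. Capitals mark, on either strand, TGACGT (in 7.9% of the 33469 promoters), CACGTG (6.4%), GTTAAT (7.5%) and TATAAA (14.2%). None of these matches overlaps another in the windows printed. Aqp2 is at chr7:132590036-132590335 on the plus strand and Aqp3 at chr5:61040634-61040933 on the minus strand.
Aqp2: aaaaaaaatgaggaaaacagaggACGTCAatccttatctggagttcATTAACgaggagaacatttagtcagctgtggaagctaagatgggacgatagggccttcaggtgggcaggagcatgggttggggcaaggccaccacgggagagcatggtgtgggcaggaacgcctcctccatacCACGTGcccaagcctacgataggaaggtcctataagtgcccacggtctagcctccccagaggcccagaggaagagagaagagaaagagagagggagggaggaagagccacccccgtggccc
Aqp3: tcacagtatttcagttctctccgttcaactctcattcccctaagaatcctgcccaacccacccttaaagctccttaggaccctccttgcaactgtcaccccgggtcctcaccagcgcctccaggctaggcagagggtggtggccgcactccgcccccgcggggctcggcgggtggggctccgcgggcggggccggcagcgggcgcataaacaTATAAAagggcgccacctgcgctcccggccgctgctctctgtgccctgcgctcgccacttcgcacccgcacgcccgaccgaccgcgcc

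The Aqp2 window held TGACGT at -227, GTTAAT at -204 and CACGTG at -71, and the Aqp3 window held TATAAA at -38. Whether these letters bear on either signal was not tested. Aqp2 was the single member gene whose mean log2 signal was higher in a microdissected group than in iron arrays. Its signals were 5139.7, 1585, 2599 and 3309 in LCM 20 arrays. In LCM 800 arrays they were 13925, 10661, 9906, 5950.2 and 7478. In iron arrays they were 3847, 3059, 1765 and 8440.0. Iron replicate 4 overlapped LCM 800 replicates 4 and 5, the LCM 20 arrays overlapped the iron arrays, and every LCM 20 array was below every LCM 800 array. Aqp2 rose by 1.32 ± 0.41 log2 units in LCM 800 against iron arrays (SE, n = 5 and 4, limma adjusted p = 0.0131), an average of 9584 against 4278 signal units. The call was lost without iron replicate 3, at 0.98 (adjusted p = 0.0533), and without LCM 800 replicates 1 to 3, at 0.86 (adjusted p = 0.185), with adjusted p between 0.00162 and 0.185 in the alternatives run. For LCM 20 minus iron the change was -0.33 ± 0.43 (n = 4 and 4, adjusted p = 0.557). For LCM 20 minus LCM 800 it was -1.64 ± 0.41 (n = 4 and 5, adjusted p = 0.0876). It was -1.95 when LCM 800 replicates 4 and 5 were left out (adjusted p = 0.00595, against up to 0.491 over all alternatives). In that fit 1317 of all 11106 tested probe sets passed as lower, against 9 in the main fit.

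Aqp3 moved the other way. Its signals were 24.2, 57.7, 346 and 86.6 in LCM 20 arrays, 80.0, 84.5, 317, 285 and 473 in LCM 800 arrays, and 1007, 924, 682 and 1884 in iron arrays. All microdissected arrays were below all iron arrays, with a spread of several-fold inside each microdissected group. Aqp3 fell by 2.02 ± 0.46 log2 units in LCM 800 against iron arrays (SE, n = 5 and 4, limma adjusted p = 0.00176), and fell by 2.78 ± 0.48 in LCM 20 against iron arrays (n = 4 and 4, adjusted p = 0.000268).

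The epithelial sodium channel, the aldosterone-regulated entry path for sodium in the distal nephron, is built of alpha, beta and gamma subunits encoded by Scnn1a, Scnn1b and Scnn1g. Scnn1b and Scnn1g are direct neighbours in the RefSeq table. The brighter Scnn1a probe set, 1387104_at, had signals of 188, 152, 212 and 181 in LCM 20 arrays, 414, 288, 361, 307 and 209 in LCM 800 arrays, and 1492, 1697, 268 and 1006 in iron arrays. Iron replicate 3 lay inside the LCM 800 range and the other iron arrays lay well above both microdissected groups. Scnn1a fell by 1.41 ± 0.37 log2 units in LCM 800 against iron arrays (SE, n = 5 and 4, limma adjusted p = 0.00467), and fell by 2.01 ± 0.39 in LCM 20 against iron arrays (n = 4 and 4, adjusted p = 0.00065). The second Scnn1a probe set, 1368203_at, was at 9.83 to 22.7 in LCM 20 arrays, 8.64 to 18.0 in LCM 800 arrays and 6.57 to 276 in iron arrays. It was left out of the test as one of the dimmest 30% on the array, and iron replicate 3 had its lowest value of all 13 arrays.

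Scnn1b, the beta subunit gene, had signals of 483, 360.3, 507 and 472 in LCM 20 arrays, 723, 599, 552, 593 and 608 in LCM 800 arrays, and 944, 915, 432 and 958 in iron arrays. Without iron replicate 3 the groups would not overlap, since that array lay among the LCM 20 arrays and below the LCM 800 arrays. Scnn1b fell by 0.70 ± 0.23 log2 units in LCM 20 against iron arrays (SE, n = 4 and 4, limma adjusted p = 0.0223). That call was lost when iron replicate 1, 2 or 4 or LCM 20 replicate 2 was left out, with adjusted p of 0.0661 to 0.0719. For LCM 800 minus iron the change was -0.31 ± 0.22 (n = 5 and 4, adjusted p = 0.245), and -0.57 without iron replicate 3 (adjusted p = 0.0171, with a range of 0.00458 to 0.478 over all alternatives).

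The gamma subunit gene Scnn1g had 2 tested probe sets that differed in the size of their change. For 1370481_at the signals were 66.3, 77.9, 58.9 and 137 in LCM 20 arrays, 79.4, 109, 131, 47.2 and 83.7 in LCM 800 arrays, and 715, 828, 280.4 and 793 in iron arrays. All microdissected arrays lay below all iron arrays. This probe set fell by 2.14 ± 0.28 log2 units in LCM 800 against iron arrays (SE, n = 5 and 4, limma adjusted p = 2.01e-05), and fell by 2.19 ± 0.30 in LCM 20 against iron arrays (n = 4 and 4, adjusted p = 3.52e-05). It averaged 85.1 in LCM 20, 90.1 in LCM 800 and 654 in iron arrays. It thus passed the filter for dim probe sets only through its iron signal, which favoured a fall. For 1387986_at the signals were 282, 170.2, 269 and 149.8 in LCM 20 arrays, 447, 225, 252, 303 and 305 in LCM 800 arrays, and 457, 425, 298 and 481 in iron arrays. This probe set fell by 0.78 ± 0.23 in LCM 20 against iron arrays (n = 4 and 4, adjusted p = 0.0127), and for LCM 800 minus iron the change was -0.38 ± 0.22 (n = 5 and 4, adjusted p = 0.156). That comparison passed with equal medians, at -0.49 (adjusted p = 0.0416), with array weights, at -0.57 (adjusted p = 0.00601), and for the mean of both probe sets, at -1.26 (adjusted p = 0.000107), and the highest adjusted p of all alternatives was 0.312. Which of them follows the transcript more closely was not tested.

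Counted together, 7 of the 11 tested member probe sets fell in LCM 800 against iron arrays, 1 rose and 3 did not pass, beside 20.1% of all tested probe sets lower and 31.8% higher. Their median change was -2.02, beside 0.22 over all tested. In LCM 20 against iron arrays 9 of 11 fell, none rose and 2 did not pass, beside 19.2% lower and 26.2% higher of all tested, with a median of -2.19 beside 0.17. Both counts and both medians include Scnn1g 1370481_at. That probe set passed the filter for dim probe sets only through its iron signal, which favoured a fall. The sample ranges lay wholly below iron for 6 of 12 probe sets in LCM 800 arrays and for 8 of 12 in LCM 20 arrays, beside 16.1% and 18.2% of all tested. The group means of the log2 signal ran iron, LCM 800, LCM 20 from high to low for 7 probe sets, iron, LCM 20, LCM 800 for 4, and LCM 800, iron, LCM 20 for Aqp2. In LCM 20 against LCM 800 none of the 11 passed limma's test in either direction, beside 0.081% lower and 0.072% higher of all tested. At an unadjusted p under 0.05 Klk1b3 and Aqp2 were lower in LCM 20, beside 9.82% of all tested. With array weights in the fit the same 2 passed, beside 411 of all 11106 tested probe sets lower. The ranges of Aqp2 and Scnn1b were lower in LCM 20 than in LCM 800 without overlap, beside 2.24% of all tested. For the other 9 tested probe sets the LCM 20 minus LCM 800 difference did not pass even before adjustment.

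**Figure D2:**
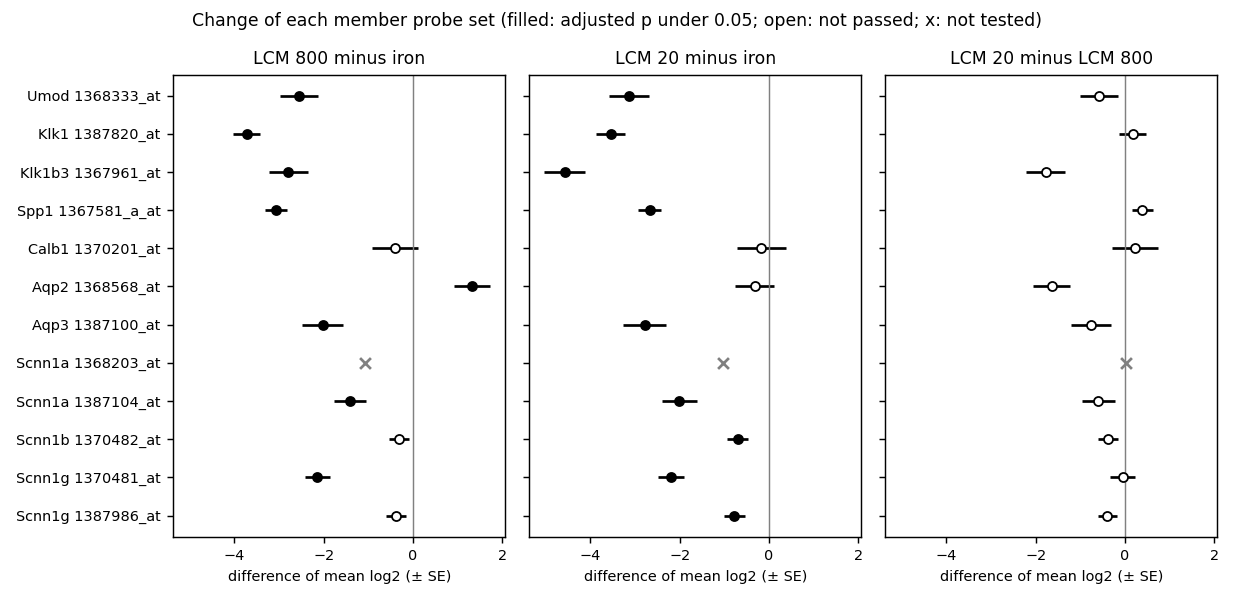
Points are the log2 changes of the tested member probe sets in LCM 800 minus iron, LCM 20 minus iron and LCM 20 minus LCM 800, with bars of 1 SE from limma. Klk1 at -3.72 and -3.55 and Spp1 at -3.06 and -2.67 lie far below 0 with short bars in both comparisons against iron, and Aqp2 at 1.32 is the single point above 0 there.

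A wider list held 78 genes of the same segments, of channel-regulating proteases and inhibitors and of the osmotic response. The members were left out, and it had 53 genes with a probe set and 43 that were tested. In LCM 800 against iron arrays 17 of the 43 fell, 6 rose and 20 did not pass, with a median of -0.53, beside 20.1% lower and 31.8% higher of all tested probe sets. In LCM 20 against iron arrays 23 fell, 1 rose and 19 did not pass, with a median of -0.93, beside 19.2% lower and 26.2% higher. In LCM 20 against LCM 800 arrays none passed limma's test in either direction, and 10 were lower at an unadjusted p under 0.05, beside 9.82% of all tested probe sets. Of the genes of intercalated cells, which handle acid and base in the collecting duct, 5 of 6 fell in LCM 20 and 4 of 6 in LCM 800 against iron arrays. Of principal cell genes 4 of 10 fell in LCM 20 and 2 of 10 in LCM 800, and the LCM 800 share is near that of all tested probe sets, and 1 rose in LCM 800. These 10 were what the filter for dim probe sets left of 15, and the genes it removed went both ways. Cdh1 averaged 44.4 in LCM 20, 17.9 in LCM 800 and 671.9 in iron arrays, and Aqp4 averaged 177.3, 132.6 and 89.9. Of thick ascending limb genes 5 of 9 fell in each microdissected group, and Casr and Nos1 rose in LCM 800. The falls counted here include Kcnj1 and Cldn19 of the thick ascending limb and Atp6v1c2 of the intercalated cells. These passed the filter for dim probe sets only through their iron signal, which favoured a fall. Of distal convoluted and connecting tubule genes 2 of 6 fell in LCM 20, and in LCM 800 1 fell and 1 rose. The 4 tested genes listed for the inner medulla and the osmotic response were Slc14a2, Akr1b1, Nfat5 and Aqp1. They had medians of 0.30 in LCM 20 and 0.32 in LCM 800, with 1 (Aqp1) lower in each and 1 (Slc14a2) higher in LCM 800. No difference between these shares was tested.

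Of 5 measured genes on the list of channel-regulating proteases and inhibitors, 4 fell in LCM 20 and 2 in LCM 800 against iron arrays. In LCM 800 minus iron St14 was at -0.27, Furin at -0.54 and Tmprss2 at 0.54, and none of these passed. Spint2, an inhibitor of serine proteases, averaged 808 signal units in LCM 20, 629 in LCM 800 and 7603 in iron arrays. It fell by 3.51 ± 0.57 log2 units in LCM 800 against iron arrays (SE, limma adjusted p = 0.000132), and fell by 3.64 ± 0.60 in LCM 20 against iron arrays (adjusted p = 0.000196). Prss8 encodes prostasin, a membrane-anchored protease that activates the channel. It averaged 393 signal units in LCM 800 and 4488 in iron arrays, a fall of 3.19 ± 0.31 (adjusted p = 1.4e-06). Cldn10, a tight junction claudin of the thick ascending limb, averaged 270.4 in LCM 20, 363 in LCM 800 and 3281 in iron arrays. It fell by 3.31 ± 0.35 in LCM 20 against iron arrays (adjusted p = 4.4e-06) and fell by 2.90 ± 0.33 in LCM 800 against iron arrays (adjusted p = 6.3e-06). Atp6v1c2, a subunit of the proton pump of intercalated cells, averaged 28.3 in LCM 20 and 1044 in iron arrays and fell by 3.42 ± 0.41 (adjusted p = 1.3e-05). Its LCM 800 average was 93.7, so it passed the filter for dim probe sets only through its iron signal. The same held for Kcnj1 of the thick ascending limb list, at 73.1 in LCM 20, 79.9 in LCM 800 and 1010 in iron arrays. It also held for Cldn19 of that list, at 118.5 in LCM 20, 87.3 in LCM 800 and 726 in iron arrays.

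Like Aqp2, a few genes of the wider list went against that direction. Casr, the calcium-sensing receptor, averaged 2663 signal units in LCM 800 and 770.4 in iron arrays and rose by 1.62 ± 0.47 log2 units (SE, n = 5 and 4, limma adjusted p = 0.00884). Without LCM 800 replicates 1 to 3 it no longer passed, at 0.78 (adjusted p = 0.245, the highest over all alternatives, with 0.000165 the lowest). Esrrb, an orphan nuclear receptor, averaged 936 in LCM 20, 1229 in LCM 800 and 554 in iron arrays. It rose by 1.08 ± 0.26 in LCM 800 against iron arrays (adjusted p = 0.00244) and rose by 0.68 ± 0.27 in LCM 20 against iron arrays (adjusted p = 0.0494), a call that 12 alternatives lost, with adjusted p of 0.0181 to 0.154 over all of them. Slc14a2, a urea transporter of the inner medulla, averaged 599 in LCM 800 and 344 in iron arrays and rose by 0.69 ± 0.23 (adjusted p = 0.019), a call lost without iron replicate 2 (adjusted p = 0.0557) or iron replicate 3 (adjusted p = 0.0525), with a range of 0.0123 to 0.0557 over all alternatives.

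Iron replicate 3 had the lowest iron signal for all 12 member probe sets, while it was the lowest iron array for 39.7% of all tested probe sets. Its signal as a share of the mean of the other 3 iron arrays ran from 3.6% for Scnn1a 1368203_at and 19.2% for Scnn1a 1387104_at to 68.1% for Calb1. The same array was lowest for all 17 proximal tubule markers and for 43 of 53 genes of the wider list, and for none of the 6 podocyte, 6 endothelial and 5 mesangial markers. Summed over the 10 member genes, the iron signal was 39896, 38636, 20994 and 43754 in replicates 1 to 4. The proximal tubule sum was 151858, 158831, 85400 and 139879 in the same arrays. The podocyte sum was 20570, 15677, 37733 and 15755, and the endothelial sum was 5614, 4072, 14975 and 4845. The member and proximal tubule sums were thus lowest, and the podocyte and endothelial sums highest, in the same iron array. Leaving it out gave 8 member probe sets lower in LCM 800 against iron arrays and 9 lower in LCM 20 against iron arrays.

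**Figure D3:**
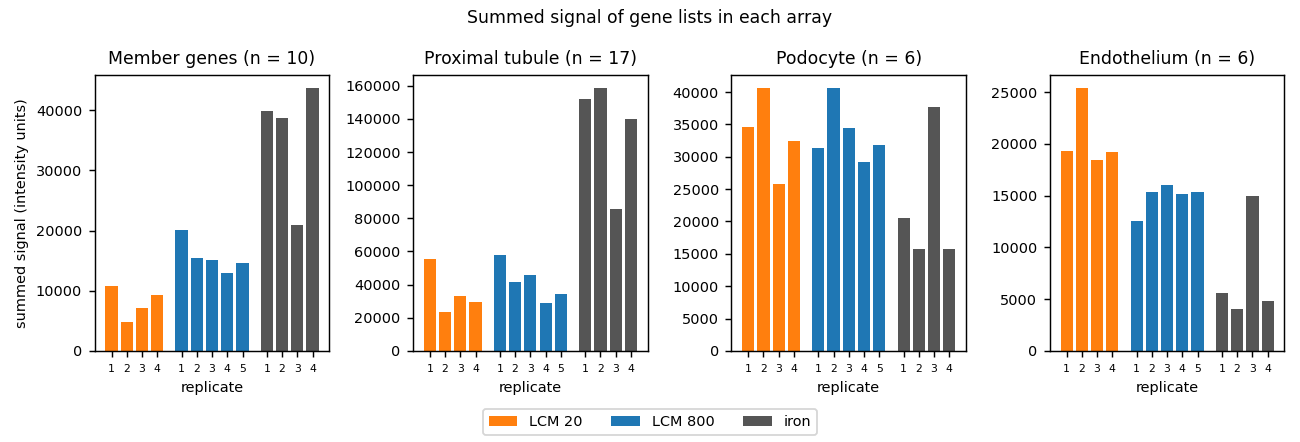
Bars show the summed signal, in intensity units from 0, of the 10 member genes, 17 proximal tubule genes, 6 podocyte genes and 6 endothelial genes in each array, ordered LCM 20, LCM 800 and iron. In the iron arrays the third bar is the lowest for member and proximal tubule genes, at 20994 and 85400, and the highest for podocyte and endothelial genes, at 37733 and 14975.

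Across groups most of the proximal tubule list fell, as most members did, part of the endothelial list rose and the podocyte list moved both ways. The member sum was 4858 to 10822 in LCM 20, 12976 to 20104 in LCM 800 and 20994 to 43754 in iron arrays. Aqp2 was the largest part of it in every microdissected array, at 1585 to 5140 in LCM 20 and 5950 to 13925 in LCM 800. The gap between the LCM 20 and LCM 800 sums is thus no result about the list as a whole, and no member passed in that comparison. The sum of the 17 proximal tubule genes was 23760 to 55302 in LCM 20, 28838 to 58105 in LCM 800 and 85400 to 158831 in iron arrays. Against iron, 16 of 17 proximal tubule genes fell in each microdissected group, with medians of -3.04 in LCM 20 and -3.10 in LCM 800. All tested probe sets were lower in 19.2% and 20.1%. Among the genes that fell, 2 passed the filter for dim probe sets only through their iron signal, which favoured a fall. Slc13a1 averaged 68.5 in LCM 20, 100.3 in LCM 800 and 1971.5 in iron arrays, and Slc5a2 averaged 77.5, 136.5 and 2474.5. The proximal tubule gene that did not fall, Pck1, averaged 16620 in LCM 20, 23680 in LCM 800 and 10957 in iron arrays. It rose by 1.07 ± 0.29 in LCM 800 (SE, limma adjusted p = 0.00559) and was the largest part of the microdissected group averages of that sum. Of 6 endothelial genes, 4 rose in LCM 20 and 3 in LCM 800 against iron arrays, beside 26.2% and 31.8% of all tested probe sets, and the others did not pass. Of 5 mesangial genes 1 rose in LCM 20 and 3 in LCM 800. Of 6 leukocyte genes 3 rose in LCM 20 and 4 in LCM 800, and 1 fell in each. Of 4 parietal epithelial genes 4 fell in LCM 20 and 3 in LCM 800. The 6 measured defining markers of the distal segments summed to 4142 to 11296 in LCM 20, 12522 to 20195 in LCM 800 and 15338 to 32159 in iron arrays, but Umod, Calb1 and Aqp2 among them are members, so this sum is no separate evidence. All signals in the table were above 0, so a value of 0 could not mark an absent transcript. The lowest signal of a defining marker was 122.8, for Slc12a3 in an LCM 20 array. The part of other cell types in the member changes was not tested.

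LCM 800 replicates 1 to 3 and replicates 4 and 5 did not overlap for 6 of 12 member probe sets, beside 52.7% of all tested probe sets. Aqp2, Klk1b3 and Spp1 were higher in replicates 1 to 3, while Calb1, Klk1 and Umod were higher in replicates 4 and 5. The 3′ minus 5′ log2 signal of the β-actin control, which grows as transcripts are copied or kept less completely toward the 5′ end, was 2.80, 3.54, 4.01, 1.78 and 1.71 in LCM 800 replicates 1 to 5. It averaged 1.80 ± 0.45 in LCM 20 (SD, n = 4), 2.77 ± 1.03 in LCM 800 (n = 5) and 0.55 ± 0.02 in iron arrays (n = 4). The LCM 800 minus iron difference was 2.22 (exact two-sided permutation test, p = 0.0159, adjusted over 9 tests 0.0476) and the LCM 20 minus iron difference 1.25 (exact p = 0.0286, adjusted 0.0643). With 4 arrays against 4 the p of 0.0286 is the smallest the test can give, and with 5 against 4 the p of 0.0159 is. The β-actin values of every microdissected array lay above those of every iron array. That only the LCM 800 difference passed thus follows from the number of arrays. The controls did not move one way. For LCM 800 minus iron the Gapdh difference was 0.70 and the hexokinase difference -0.50 (exact p = 0.0159, adjusted 0.0476 each), and for LCM 20 minus iron they were 0.61 (exact p = 0.543, adjusted 0.611) and -0.29 (exact p = 0.229, adjusted 0.343). Without a pseudocount none of the LCM 800 calls passed, with adjusted exact p of 0.0714 for β-actin. The part of these differences in the member signals was not tested.

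The change of Aqp2 was also set beside that of each other member within an array. Aqp2 was taken because it was the member seen to rise, so these differences restate the changes of the single genes, and all of them share Aqp2 and the 4 iron arrays. The difference between log2 Aqp2 and log2 of another member gene, relative to its iron mean, does not change with the scaling of an array apart from the pseudocount. In LCM 800 this difference lay above the whole iron range for 8 of 9 genes, all but Calb1, and in LCM 20 for 5 of 9, which were Umod, Klk1, Klk1b3, Spp1 and Aqp3. The same held for 22.3% of all other tested probe sets in LCM 800 and 3.85% in LCM 20. With Calb1 in the place of Aqp2 the difference lay above the iron range for 4 of 9 genes in each group. The share over all tested probe sets was not computed for Calb1, so this count cannot be judged against it. Calb1 itself did not pass against iron arrays. Beside Aqp3, the other water channel of the principal cell, the mean was 2.46 in LCM 20 and 3.34 in LCM 800, with iron arrays between -0.44 and 0.39. Beside Scnn1b the mean was 0.38 in LCM 20, inside the iron range, and 1.63 in LCM 800. Beside Klk1 it was 3.22 in LCM 20 and 5.04 in LCM 800, with iron arrays between -0.60 and 0.87. These differences show unequal change of the 2 genes in an array and not which of them changed.

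**Figure D4:**
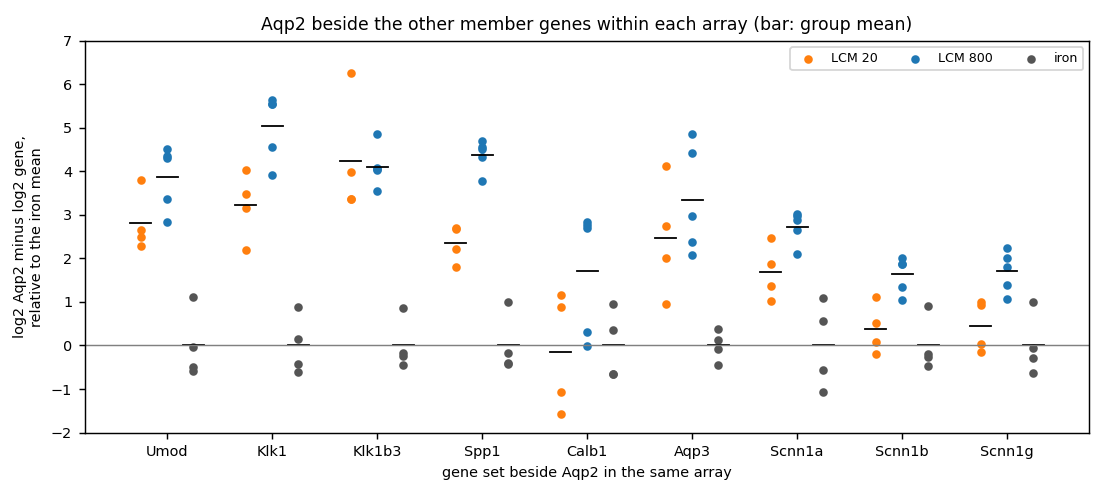
Points are log2 Aqp2 minus log2 of each other member gene in the same array, relative to the iron mean of that difference, for LCM 20, LCM 800 and iron arrays, with bars at group means. LCM 800 points sit above all iron points for every gene but Calb1, and LCM 20 points overlap iron points for Calb1, Scnn1a, Scnn1b and Scnn1g.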

How the data were processed

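Glomerular RNA of 13 rat arrays (Affymetrix Rat 230A) was analysed. The deposited table gives 1 linear signal per probe set and array, in intensity units, and the submitters' processing notes name MAS5 as the tool. The 2% trimmed mean of each array was 500.1, so arrays had been scaled and were not normalized again. Values were taken as log2(signal + 65.29), the pseudocount being the 20th percentile of all signals. Controls (57 probe sets) and the dimmest 30% of the array, ranked on the mean of log2 values, were removed, so that 11106 were tested. Symbols came from the platform table: 12783 probe sets had 1, 312 had several and 2771 had none. On the wider list the brightest probe set stood for its gene.

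Groups followed the sample titles. A single model of the 3 groups, without covariates, was fitted in limma (version 3.58.1, R 4.3.3) with lmFit and a trended eBayes, and p-values were adjusted by Benjamini-Hochberg at 0.05 over all tested probe sets, and the procedure was tested on simulated data. The labels call the arrays biological replicates. The 3′ minus 5′ controls were compared by exact permutation tests. The members, lists and tests were chosen with earlier results of these data known. All members were named, and from the wider list the 3 greatest rises and 3 greatest falls per comparison. Array scaling, pseudocount, filter, weights, block and left-out arrays were varied. Promoters of 8 of the 10 members were matched in RefSeq GRCr8, and the genome build of the probe sets is not given in the sources used here. The number of arrays limits the precision.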

Additional observations from a re-analysis of the deposited data

Results flagged for a closer look

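In 36 groups of 4 or 5 arrays tested, 1 for each member probe set and group, 4 held an array whose gap to its nearest neighbour took up more of the group's range than Dixon's 95% critical value. Chance would give about 1 in 20 such groups if they were independent. The groups share the same 13 arrays, so the 4 cannot be judged against that rate. In all 4 the array was iron replicate 3, the lowest of the iron arrays. The gap was 0.892 of the range for Klk1, 0.884 for Klk1b3, 0.94 for Scnn1b and 0.857 for the Scnn1g probe set 1370481_at.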

How the results depend on the processing

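Of 871 recomputed values for single genes, 821 kept their direction and side of the threshold, 22 no longer passed, 14 newly passed and 14 changed sign, and the causes were not tested. Leaving out LCM 800 replicates 1, 2 and 3, or 4 and 5, was chosen after the data were seen. With the dimmest 60% removed, 4 members fell in LCM 800 and 5 in LCM 20 against iron arrays, as fewer members were tested. Leaving out 1 array gave 7 to 8 and 8 to 9, with 0 to 1 higher in LCM 800, and 0 higher without iron replicate 3 or without LCM 800 replicates 1, 2 and 3. For LCM 20 against LCM 800, 2 members fell with array weights and 2 without LCM 800 replicates 4 and 5 (0 to 2 leaving out 1 array), and on the wider list 6 and 10 fell (0 to 4). Of all 11106 tested probe sets, 411 were lower with array weights and 1317 without LCM 800 replicates 4 and 5. In the main fit 9 were lower, so calls rose over the whole array in both settings. Wider list genes higher in LCM 800 than iron numbered 3 with equal medians, 3 without LCM 800 replicates 1, 2 and 3, and 2 to 7 leaving out 1 array. Those higher in LCM 20 than iron numbered 2 with equal medians, 0 to 1 leaving out 1 array, and 0 with quantile normalization, 4 times the pseudocount, no filter, the replicate block or only the 2 groups compared. Without a pseudocount the LCM 800 minus iron control differences were 2.72 for β-actin, 0.85 for Gapdh (adjusted exact p = 0.0714 each) and -0.55 for hexokinase (adjusted exact p = 0.796).

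Changes of sign were all in values that had not passed. For LCM 800 minus iron it was Calb1, at 0.72 without LCM 800 replicates 1, 2 and 3. For LCM 20 minus iron these were Aqp2 at 0.073 without iron replicate 4 (-0.67 to 0.073 leaving out 1 array) and Calb1 at 0.32 without LCM 20 replicate 3 (-0.54 to 0.32). For LCM 20 minus LCM 800 these were Umod at 0.038 without LCM 20 replicate 2 (-0.90 to 0.038 leaving out 1 array), Klk1 at -0.17 without LCM 800 replicates 1, 2 and 3, and Calb1 at -0.02 without LCM 800 replicate 3, -0.14 without LCM 20 replicate 4 and -0.89 without LCM 800 replicates 1, 2 and 3. Scnn1g 1370481_at was at 0.085 with quantile normalization, 0.0305 with equal medians, -0.20 to 0.041 leaving out 1 array, and 0.19 without LCM 800 replicates 1, 2 and 3. Replicate numbers did not pair the samples (correlation of deviations -0.244 to 0.233), and with the replicate number as a block 7 and 9 members still fell against iron arrays and 19 and 23 genes of the wider list.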
